A study of Arabidopsis thaliana with 39 samples.

Results

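The LAT52 promoter, GUS and right border stretches lie next to each other at the right border end of the T-DNA of plasmid pCSA110, which SAIL_232 plants carry. LAT52 is a tomato promoter known for its activity in pollen, GUS is the bacterial reporter enzyme β-glucuronidase, and the right border is the short repeat at which T-DNA transfer begins. On the deposited plasmid sequence, GUS was the open reading frame of 603 amino acids on the plus strand at 5151-6962 of pCSA110. The promoter stretch was taken as the 1000 bases before it, 4151-5150, and the right border stretch as the 462 bases after it, 6963-7424, up to and including the right border repeat. Small RNA reads were members when their midpoint lay at 4151-7424 and their sequence equalled the plasmid at every base. This gave 502 of the 3175 small RNA reads listed on pCSA110, of which 362 lay on the promoter stretch, 52 on GUS and 88 on the right border stretch. With them, 637 of the 34770 aligned RNA-seq pieces had their first base in the same stretches.

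SAIL_232 is an Arabidopsis thaliana line of the Columbia background made by Agrobacterium floral dip. RNA came from whole rosette leaves of pooled segregating plants collected after bolting, with 1 small RNA library and 1 RNA-seq library. A pool of segregating plants can hold plants with different sets of the insertions, and the line carries several T-DNA insertions, some of them partial, so that densities per kb were not corrected for the copies present. A small RNA library of SALK_059379 leaves, a line with the T-DNA of plasmid pROK2, was used only for the bases that both plasmids hold. Pollen, in which LAT52 is known to be active, was not sampled. The bisulfite and chromatin libraries of these lines are not analysed here. No test was made, since each line has a single library of each assay. Shares have exact Clopper-Pearson 95% intervals, counts exact Poisson 95% intervals and density ratios exact 95% intervals from the split of the reads. All of them cover counting error only. Intervals over RNA-seq pieces count pieces of 1 read as separate, and are to that extent too narrow.

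In plants, small RNAs of 24 nt are produced from double-stranded RNA made by RNA polymerase IV and RDR2 and cut by DCL3. They load ARGONAUTE4 and its relatives, which favour an adenine at the 5′ end, and guide DNA methylation to matching sequence, most often to promoters and repeats. Small RNAs of 21 and 22 nt come from DCL4 and DCL2, typically from transcripts that RDR6 makes double-stranded, and guide cleavage of matching RNA. The length, strand and first base of the reads on a transgene promoter and on the reporter it drives are therefore the usual description of which small RNAs are present there. The reads themselves are vector sequence and are given by their plasmid positions.

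Small RNAs of 24 nt were concentrated on the promoter stretch and nearly missing from GUS. The promoter stretch held 181 reads of 24 nt (95% interval 156 to 209), GUS held 4 (1.09 to 10.24) and the right border stretch held 24 (15.4 to 35.7). Per kb this was 181 on the promoter stretch, 2.21 on GUS and 51.9 on the right border stretch. The density on the promoter stretch was 82.0 times that on GUS (31.5 to 304), and the density on the right border stretch was 23.5 times that on GUS (8.08 to 93.3). The promoter stretch also had 3.48 times the 24 nt density of the right border stretch (2.27 to 5.58). Only 4 reads stand below each ratio to GUS, and its upper bound is correspondingly loose.

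The 21 and 22 nt reads were also fewer on GUS, with smaller ratios whose intervals overlapped those of the 24 nt reads. There were 66 on the promoter stretch, 8 on GUS and 26 on the right border stretch, or 66.0, 4.42 and 56.3 per kb. The promoter stretch thus had 14.9 times the density of GUS in these lengths (7.16 to 36.1), and the right border stretch 12.7 times (5.60 to 32.6). Between the promoter and right border stretches the 21 and 22 nt density ratio was 1.17 (0.735 to 1.92), an interval that includes 1, whereas that of the 24 nt reads did not. Outside these lengths the contrast was smaller. Reads of 15 to 20 nt numbered 27 on the promoter stretch and 17 on GUS, a density ratio of 2.88 (1.51 to 5.63), and reads of 30 to 47 nt numbered 26 and 14, a ratio of 3.37 (1.69 to 6.97).

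**Figure D1:**
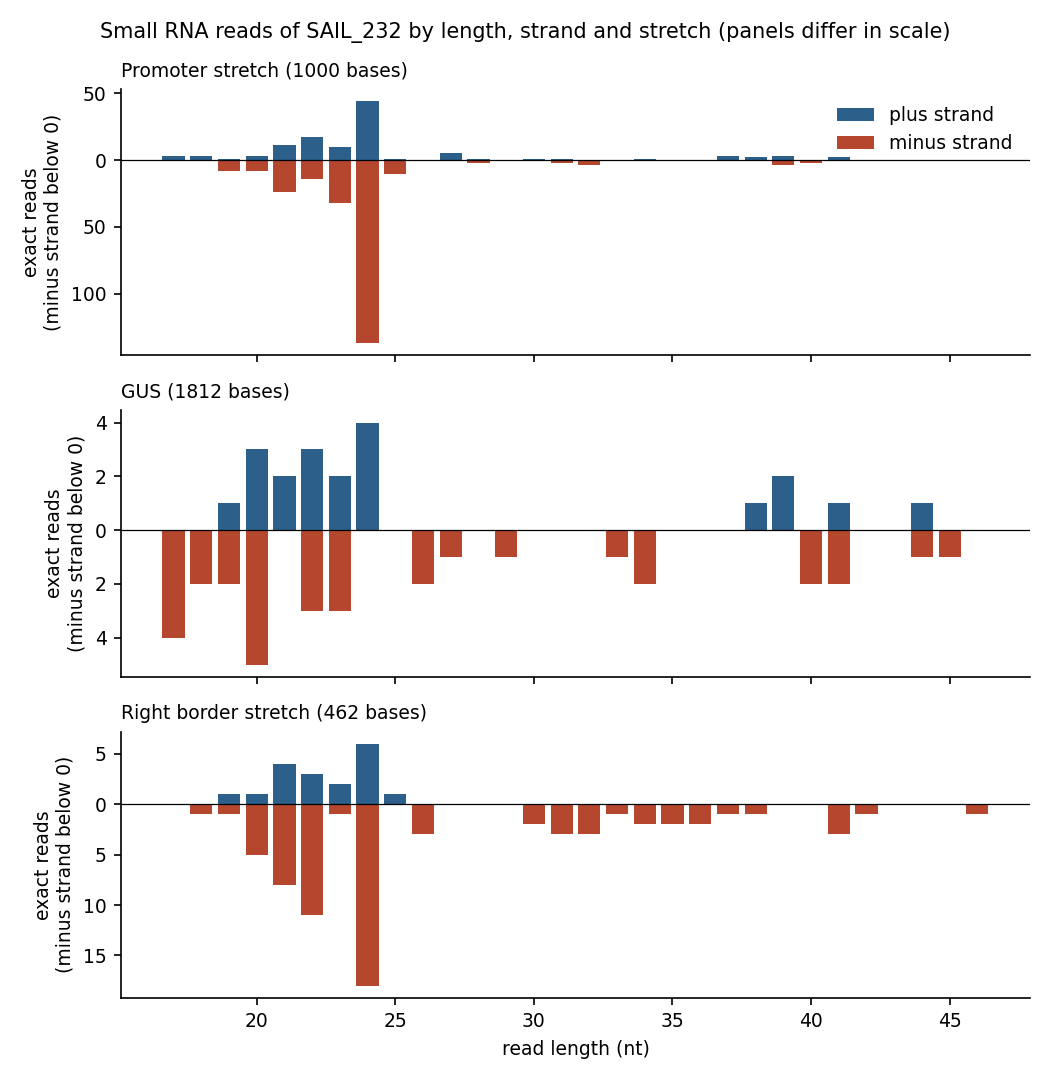
Exact small RNA reads of SAIL_232 by length (x axis, nt) in the promoter stretch, GUS and the right border stretch, with plus strand reads above 0 and minus strand reads below 0 on the y axis, which differs in scale between panels. The promoter panel is dominated by 181 reads of 24 nt, 137 of them on the minus strand, while no length exceeded 8 reads on GUS.

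Among reads of 21 to 24 nt, those of 24 nt made up 181 of 289 on the promoter stretch, or 62.6% (56.8 to 68.2). On the right border stretch they made up 24 of 53, or 45.3% (31.6 to 59.6), and on GUS 4 of 17, or 23.5% (6.81 to 49.9). The intervals of the promoter stretch and GUS did not overlap, whereas that of the right border stretch overlapped both. The rest of the T-DNA, from the left border to the promoter stretch, is the part that holds the herbicide resistance gene bar. There, 24 nt reads made up 15.2% (13.1 to 17.5), below the interval of either flanking stretch. The promoter stretch had 4.18 times the 24 nt density of the rest of the T-DNA (3.37 to 5.19), and the rest had 3.31 times the 21 and 22 nt density of the promoter stretch (2.58 to 4.32).

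Much of the promoter share rested on repeated reads. With identical reads, those that share both ends and the strand, counted once, 47 of 108 distinct reads on the promoter stretch were of 24 nt, or 43.5% (34.0 to 53.4). The same count gave 4 of 13 on GUS, or 30.8% (9.09 to 61.4), and 16 of 38 on the right border stretch, or 42.1% (26.3 to 59.2). By distinct reads the 3 stretches overlapped in their 24 nt share. The difference in number remained, since 47 distinct 24 nt reads on 1000 bases against 4 on GUS is a density ratio of 21.3 (7.79 to 81.4). For distinct reads of 21 and 22 nt the same ratio was 13.4 (5.26 to 43.7), with an interval that overlapped it.

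**Figure D2:**
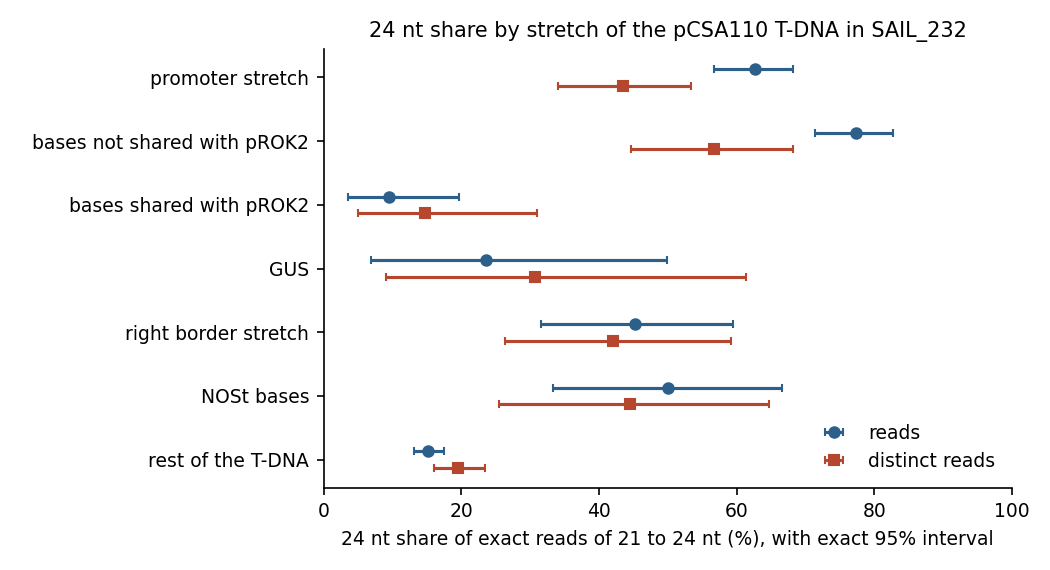
Share of 24 nt reads among exact reads of 21 to 24 nt (x axis, %) for each stretch of the pCSA110 T-DNA in SAIL_232, as all reads (circles) and as distinct reads (squares), with exact 95% intervals as bars. Bases of the promoter stretch that pROK2 does not hold lie highest at 77.4%, and bases that it does hold lie at 9.52%.

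The promoter stretch was not uniform. Its first 352 bases, 4151-4502, are held by pROK2 too, in runs of 378 and 234 bases that overlap it, and are thus vector sequence that does not belong to this promoter alone. The following 648 bases, 4503-5150, up to the GUS start codon are not held by pROK2 and are rich in A and T, with a GC content of 28.2% against 54.3% in the shared bases and 52.3% in GUS. This division was made after the reads had been seen. Of the 181 reads of 24 nt, 175 lay on the unshared bases and 6 on the shared ones, or 270 and 17.0 per kb, a ratio of 15.8 (7.13 to 43.8). The 21 and 22 nt reads were distributed the other way, with 13 on the unshared bases and 53 on the shared ones, or 20.1 and 151 per kb, a ratio of 7.51 (4.04 to 15.0). Accordingly 24 nt reads were 77.4% (71.4 to 82.7) of 21 to 24 nt reads on the unshared bases and 9.52% (3.58 to 19.6) on the shared ones. By distinct reads these shares were 56.8% (44.7 to 68.2) and 14.7% (4.95 to 31.1), and their intervals did not overlap either. The 21 and 22 nt excess of the promoter stretch over GUS thus lay mainly in vector sequence, and without the shared bases it was 4.54 times (1.75 to 12.6).

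**Figure D3:**
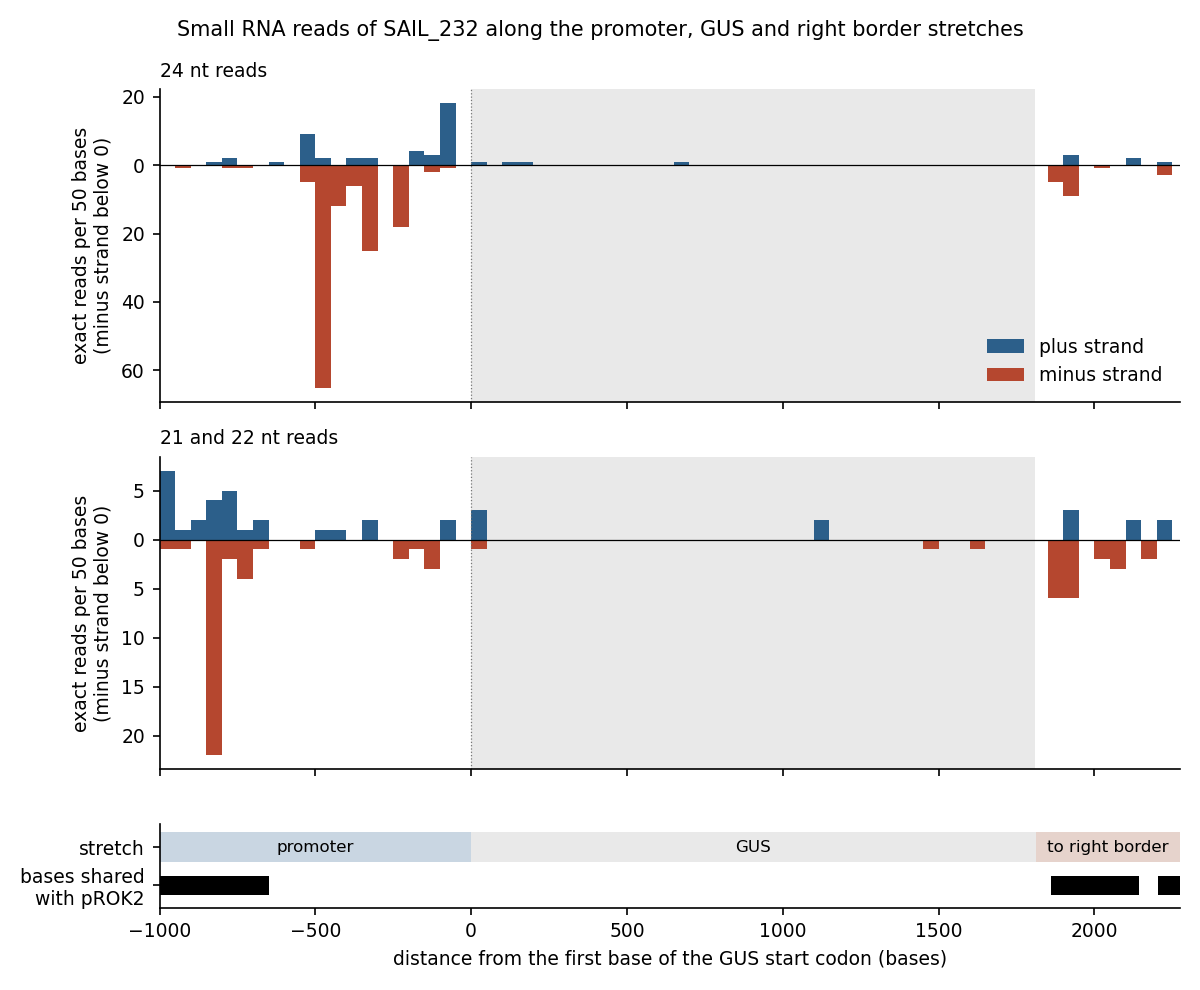
Exact reads of 24 nt (top) and of 21 and 22 nt (middle) in bins of 50 bases along the 3 stretches, by distance from the GUS start codon (x axis, bases), with the minus strand below 0, GUS shaded and the last bin 24 bases wide. The bottom rows show the stretches and the bases that pROK2 also holds, where 53 of the 66 reads of 21 and 22 nt of the promoter stretch lay.

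On the promoter stretch the strand of the 24 nt reads, with repeated reads counted, changed with distance from GUS. Over the whole stretch 137 of 181 were on the minus strand, the strand opposite to GUS, or 75.7% (68.8 to 81.7). From 500 to 251 bases upstream of the start codon the minus strand held 108 of 114, or 94.7% (88.9 to 98.0). In the last 250 bases it held 21 of 46, or 45.7% (30.9 to 61.0), and from 750 to 501 bases upstream it held 6 of 16, or 37.5% (15.2 to 64.6). Within the last 100 bases before the start codon 18 of 19 reads were on the plus strand, but 14 of these 18 were copies of the read at 5044-5067. The excess of the minus strand was a matter of a few frequent reads, since 25 of 47 distinct reads were on the minus strand, or 53.2% (38.1 to 67.9). From 500 to 251 bases upstream, 63 of the 108 minus strand reads were the read at 4644-4667. Distinct reads on the minus strand were 10 of 15 there, 9 of 18 in the last 250 bases and 4 of 10 from 750 to 501 bases upstream. By distinct reads the change with distance was thus weaker.

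A single read accounted for much of the peak. The minus strand read at 4644-4667 was found 63 times, 34.8% of the promoter's 24 nt reads. It was followed by the minus strand read at 4798-4821 with 15 reads and the plus strand read at 5044-5067 with 14. Together these 3 made up 50.8% of the 24 nt reads, while 27 of the 47 positions were found once. The other frequent 24 nt reads, at 4723-4746 and 4810-4833 with 9 reads each, were again on the minus strand. The bins of 100 bases with most 24 nt reads were 4651-4750 with 79 reads, 4751-4850 with 35 and 5051-5150 with 19. Among the 5 most frequent reads of any length on the promoter stretch, the 1 that was not of 24 nt was a 21 nt minus strand read at 4328-4348 with 11 reads, which lies in the bases shared with pROK2.

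Without the most frequent position of each stretch, the 24 nt share of the promoter stretch was 52.2% (45.5 to 58.9), the minus strand share 62.7% (53.3 to 71.4), and the 24 nt density ratio to GUS 53.5 (20.3 to 199). The strand share remained above 50% and the ratio remained far above 1 without that read.

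The 24 nt reads from the promoter stretch mostly began with A. An A stood at the 5′ end of 148 of 181 reads, or 81.8% (75.4 to 87.1), while A made up 38.5% of the other positions of the same reads. By distinct reads it was 31 of 47, or 66.0% (50.7 to 79.1), against 33.9% at the other positions. The most frequent read also began with A, and without it the share was 85 of 118, or 72.0% (63.0 to 79.9). Both strands showed it, with 32 of 44 plus strand reads and 116 of 137 minus strand reads beginning with A. Counted over 21 and 22 nt reads of the same stretch, A began 15 of 66, or 22.7% (13.3 to 34.7). U was the most frequent first base with 25 reads, of which 11 were the read at 4328-4348. By distinct reads A and U each began 10 of 37, and C began 11. These lengths lay mainly on the bases shared with pROK2, unlike the 24 nt reads. On the unshared bases A began 5 of 13 reads of 21 and 22 nt, or 38.5% (13.9 to 68.4), and U 2. There A began 147 of 175 reads of 24 nt, or 84% (77.7 to 89.1). By distinct reads it was 4 of 10 and 30 of 42, with intervals that overlapped. The first base of these reads depends on the strand column, which decides the end that is the 5′ end.

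**Figure D4:**
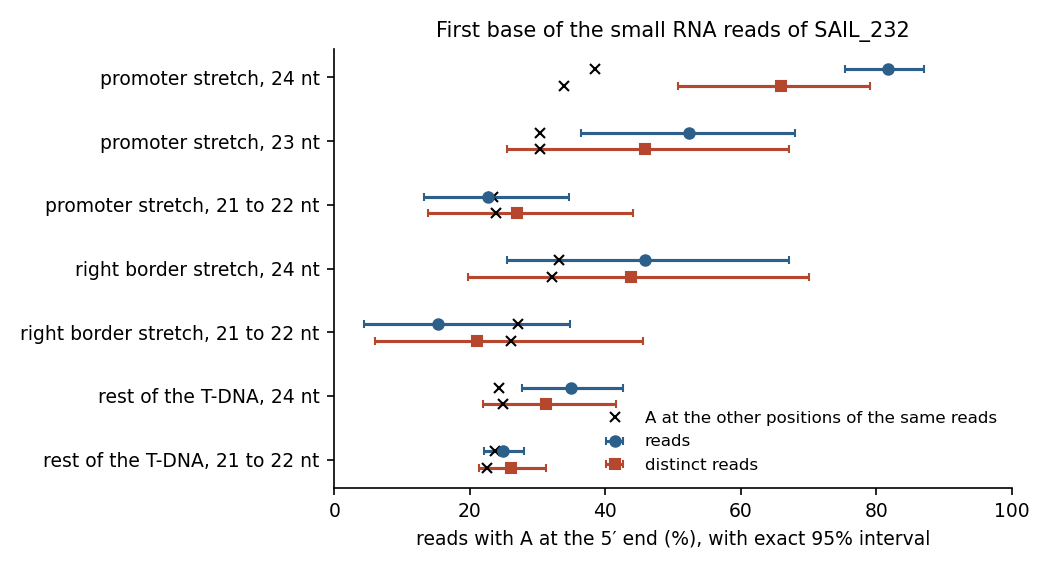
Share of small RNA reads of SAIL_232 with A as their first base (x axis, %), by stretch and length, for reads (circles) and distinct reads (squares) with exact 95% intervals, and the share of A at the remaining positions of the same reads (crosses). The interval of the 24 nt reads of the promoter stretch, 75.4 to 87.1%, lies clear of its cross at 38.5%.

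By reads, A at the first base was less frequent among 24 nt reads of the right border stretch and of the rest of the T-DNA. On the right border stretch it was 11 of 24, or 45.8% (25.6 to 67.2), with 33.2% at the other positions. By distinct reads it was 7 of 16 there, or 43.8% (19.8 to 70.1), an interval that overlapped that of the promoter stretch. On the rest of the T-DNA it was 59 of 169, or 34.9% (27.8 to 42.6), with 24.3% at the other positions, and by distinct reads 29 of 93, or 31.2% (21.98 to 41.6). On GUS 3 of the 4 reads of 24 nt began with A, too few for a comparison.

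Reads of 23 nt followed those of 24 nt on the promoter stretch. There were 42, of which 32 were on the minus strand and 38 lay on the unshared bases. A had the first place in 22 of them, or 52.4% (36.4 to 68.0), with 30.4% at the other positions. By distinct reads it was 11 of 24, or 45.8% (25.6 to 67.2), an interval that includes the 30.3% at the other positions. Of the 42, 16 had the same 5′ end as a 24 nt read of their strand and 9 the same 3′ end, 20 in all when either end was counted. Pairs of distinct 24 nt reads on opposite strands, offset by the 2 base overhang that DCL enzymes leave at 3′ ends, were rare. The promoter stretch held 2 such pairs among 22 distinct plus and 25 distinct minus strand reads, and the other 46 offsets held between 0 and 5, with a median of 1. The 2 base offset therefore did not stand out from the other offsets at this depth.

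GUS itself held few small RNAs, above all of 21 to 24 nt. Its 1812 bases held 52 exact reads at 41 distinct positions, or 28.7 per kb, against 362 per kb on the promoter stretch and 190 per kb on the right border stretch. Reads of 21 to 24 nt were 9.38 per kb on GUS, against 289 and 115 per kb, and reads of 15 to 20 nt were also 9.38 per kb, against 27 and 19.5 per kb. The 4 reads of 24 nt lay at 5177-5200, 5258-5281, 5338-5361 and 5826-5849, 1 read each, all on the plus strand and 3 of them with midpoints within the first 200 bases of the gene. The most frequent read of any length was a plus strand read of 22 nt at 5188-5209 with 3 reads. It was followed by 9 positions with 2 reads each, of which the first 4 along the gene were a 20 nt minus strand read at 5149-5168 and plus strand reads at 5155-5193, 5311-5333 and 6266-6286. Strand shares on GUS rest on few reads, with 32 of 52 on the minus strand, or 61.5% (47.02 to 74.7). More than 700 bases into the gene 0 reads of 24 nt were found, which allows up to 3. The 200 and 700 base marks each lie just past the midpoint of a 24 nt read, so these counts follow from where the marks were set.

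The right border stretch holds the nopaline synthase terminator NOSt, which follows GUS and is a common terminator in T-DNA vectors for plants. Reads of all lengths were as dense on NOSt as on the rest of the stretch, with 50 reads or 192 per kb against 38 reads or 189 per kb, but they differed in length. The 261 bases at 7028-7288, which pROK2 holds at both of its NOSt copies, had 19 of the 24 reads of 24 nt and 17 of the 26 reads of 21 and 22 nt, or 72.8 and 65.1 per kb against 24.9 and 44.8 per kb on the rest. Of the 22 reads of 30 to 47 nt, 3 lay on NOSt and 19 outside it. The 24 nt share on NOSt was 19 of 38, or 50.0% (33.4 to 66.6). The remaining 201 bases of the stretch had 5 of 15, or 33.3% (11.8 to 61.6). No position of this stretch was found more than 3 times. The most frequent reads were 22 nt reads at 7013-7034 and 7057-7078, 24 nt reads at 7028-7051 and 7057-7080, and a 20 nt read at 7077-7096, all on the minus strand with 3 reads each. The minus strand held 18 of 24 reads of 24 nt, or 75.0% (53.3 to 90.2), and 19 of 26 reads of 21 and 22 nt, or 73.1% (52.2 to 88.4). The right border repeat at 7400-7424 held 0 reads by midpoint, which allows up to 3.

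The bases that pCSA110 and pROK2 share allow the same sequence to be read in both lines. Reads lying wholly inside the 261 NOSt bases were 50.0% of 24 nt in SAIL_232 (33.4 to 66.6, 38 reads of 21 to 24 nt). In SALK_059379 they were 50.9% at 1 copy (45.0 to 56.7, 293 reads). At the other copy, where 280 bases are shared, they were 41.7% (36.4 to 47.2, 333 reads), with 45.2% (29.8 to 61.3, 42 reads) in SAIL_232. On the NOSt bases the intervals of both lines overlapped. By midpoint over both copies the SALK_059379 share was 43.5% (40.2 to 46.9). On the vector bases at 4269-4502 the intervals of the lines did not overlap, with 10% in SAIL_232 (3.33 to 21.8, 50 reads) and 31.4% in SALK_059379 (26.7 to 36.4, 366 reads). Of the 50 reads in SAIL_232, 11 were copies of the 21 nt read at 4328-4348, and the share without it was not computed. On 4151-4271 the shares of the lines were 7.69% (0.195 to 36.0, 13 reads) and 40.7% (30.5 to 51.5, 91 reads), with intervals that overlapped. These bases have other neighbours on pROK2, and reads that both NOSt copies hold cannot be given to 1 of them. Line, plasmid and library cannot be told apart in these values. Of the distinct sequences that SAIL_232 had wholly inside 7028-7288, 19 of 34 were also found in SALK_059379, and inside 4269-4502 it was 20 of 38.

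The densities of RNA-seq pieces did not follow the order of the small RNA densities. The table lists aligned pieces of reads. A piece was placed by its first base on the plasmid, which is its lowest position whatever its strand. GUS held 292 pieces, the promoter stretch 110 and the right border stretch 235, or 161, 110 and 509 per kb. The promoter stretch had 0.683 times the density of GUS (0.543 to 0.853), but with 1500 bases upstream of GUS the ratio was 0.836 with an interval that includes 1 (0.695 to 1.003). On the right border stretch 137 of the pieces were under 20 bases, and 98 had 20 bases or more. The commonest were plus strand pieces of 10 bases at 7394-7403 with 46 entries, of 7 bases at 7406-7412 with 31 and of 2 bases at 7422-7423 with 30. Such short pieces are parts of reads, and their placement is not secure. With pieces of 20 bases or more only, the densities were 146 per kb on GUS, 95 on the promoter stretch and 212 on the right border stretch.

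The strands of the pieces differed between the stretches. On GUS 282 of 292 pieces were listed on the plus strand, leaving 3.42% on the minus strand (1.65 to 6.21). On the right border stretch 234 of 235 were on the plus strand, leaving 0.426% on the minus strand (0.0108 to 2.35). On the promoter stretch 81 of 110 were on the minus strand, or 73.6% (64.4 to 81.6). This direction depends on the length taken as promoter, since with 500 bases upstream of GUS the minus strand share was 25.9% (11.1 to 46.3). GUS was covered over its whole length by plus strand pieces of 20 bases or more, with a median depth of 16 and a range from 1 to 40, and over 11.8% of its length by minus strand pieces. Joined into reads, GUS had 259, the promoter stretch 79 and the right border stretch 99.

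The bar gene served as the reference for the strand column. Its open reading frame lies on the plus strand of pCSA110, as that of GUS does, yet 98.6% (98.5 to 98.8) of its 26124 pieces were listed on the minus strand. The median piece there had 2 bases. Joined into reads it was 4588 of 4657, or 98.5% (98.1 to 98.8). With pieces of 20 bases or more it was 427 of 441, or 96.8% (94.7 to 98.3). The pieces of GUS thus lay mainly on the strand opposite to that of the bar pieces, relative to the coding strand of each. Long reads of the small RNA library, of 25 nt or more, had the opposite strand to the RNA-seq pieces on bar and on the right border stretch, but not on the promoter stretch. On bar 602 of 617 were on the plus strand, or 97.6% (96.0 to 98.6), and on the right border stretch 25 of 26 were on the minus strand, or 96.2% (80.4 to 99.9). On GUS 13 of 18 were on the minus strand, or 72.2% (46.5 to 90.3). On the promoter stretch 26 of 46 were on the minus strand, or 56.5% (41.1 to 71.1), where most pieces were on the minus strand too. The methods do not state whether the RNA-seq strand column names the strand of the RNA or that of its complement, so the pieces on GUS cannot be called sense or antisense from that column alone.

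**Figure D5:**
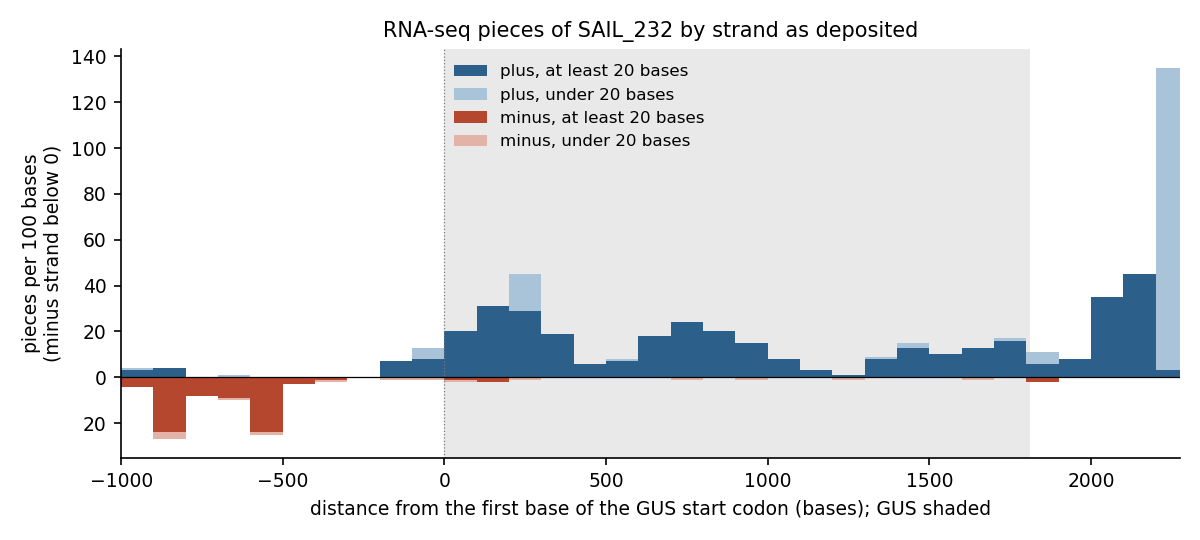
RNA-seq pieces of SAIL_232 by their first base in bins of 100 bases (y axis, pieces, minus strand below 0) against distance from the GUS start codon (x axis, bases), with pieces under 20 bases in pale colour, GUS shaded and the last bin 74 bases wide. Plus strand pieces cover GUS and the right border stretch. By their lowest position, most minus strand pieces lie more than 500 bases upstream of GUS, and 5 pieces lie from 500 to 201 bases upstream.

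Along the promoter stretch the starts of the pieces and the 24 nt reads were distributed differently. Of the 110 pieces, 83 began from 1000 to 501 bases upstream of the GUS start codon, 74 of them on the minus strand. From 500 to 201 bases upstream 5 pieces began, or 4.55% (1.49 to 10.3) of those on the stretch, all on the minus strand. In the last 200 bases 22 began, 20 of them on the plus strand as on GUS. The 24 nt reads of the same intervals numbered 21, 132 and 28. Thus 72.9% (65.8 to 79.3) of them lay in the interval where the fewest pieces had their lowest position. Pieces are longer than small RNA reads and ran on into it, so that minus strand pieces of 20 bases or more covered 77.3% of it, with a median depth of 1 against 11 in the interval before it. At the most frequent 24 nt read, 4644-4667, their depth was 15 to 18. That read, found 63 times, lies across the boundary at 500 bases, at -507 to -484 from the start codon. A boundary slightly nearer to GUS would place its copies in the interval before, so the contrast depends on this cut. The contrast also depends on the end of the piece that is counted. Minus strand pieces over the whole of 4644-4667 were placed in the interval before by their lowest position. Their other end lies from 500 to 201 bases upstream, and a count by that end was not made. By distinct 24 nt reads the 3 intervals held 14, 21 and 12. The division into these intervals was made after the values had been seen. The interval from 500 to 201 bases upstream has a GC content of 23.7%, against 51.2% in the interval before it, and the part of base composition in the low number of piece starts was not tested. Minus strand pieces of 20 bases or more that began in the promoter stretch ended at the latest 269 bases upstream of GUS. Plus strand pieces of the same lengths within the last 200 bases began at the earliest 179 bases upstream, and 2 plus strand pieces that began upstream reached into GUS.

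The bins with most pieces were 7351-7424 with 135, 5351-5450 with 46, 7251-7350 with 45, 7151-7250 with 35 and 5251-5350 with 33. All but 3 of the 135 pieces in the first of these were under 20 bases. The deepest coverage of GUS by plus strand pieces of 20 bases or more, 40, was at 5348, and that of the right border stretch, 55, was at 7268 in NOSt.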

How the data were processed

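Small RNA-seq and RNA-seq of SAIL_232 leaves and small RNA-seq of SALK_059379 leaves were used, 1 library each. Per the methods and labels, the authors trimmed adapters, mapped reads to the plasmid with Bowtie2 2.3.0 and the Geneious aligner, mapped the reads again to TAIR10 as a check for off-target reads, and deposited tables with 1 line per read or aligned piece, not normalized. Bowtie 0.12.7 and FastQC are also named in the submitters' processing notes. How many reads were sequenced is not known here, and depth is the 3175 small RNA reads and 34770 RNA-seq pieces listed on pCSA110.

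The deposited tables and plasmid sequences were read with Python 3 and pandas, and intervals computed with SciPy. Open reading frames of at least 150 codons and the 25 base border repeats (4 mismatches between them) placed the elements, and runs of at least 18 bases the sequence shared with pROK2. NOSt was taken as the 261 bases that pROK2 holds at both copies, since the single longest run, 280 bases, occurs at 1 copy. No exact read of the stretches occurs at more than 1 place of pCSA110. Pieces were joined as reads when consecutive pieces of 1 strand were separated by up to 16 bases and summed to up to 130 bases, giving 6787 joined reads. Reads were searched for in the reference genome TAIR10.1, from which no coordinates were taken, and 1 of the 502 matched it. Assignment and joining were tested on simulated data. Text names the 3 stretches, every 24 nt read on GUS, in each stretch the most frequent reads, and the bins of 100 bases with most reads or pieces. The members and lists were chosen with earlier results of these data known. Alternatives are given in the closing section. As the reads of each library need not be separate molecules, intervals and limits cover counting error only.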

Additional observations from a re-analysis of the deposited data

Results flagged for a closer look

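The small RNA table lists 61 further reads in the promoter, GUS and right border stretches that differ from pCSA110 in at least 1 base and entered no comparison above. They are 10.8% (95% interval 8.39 to 13.7, Clopper-Pearson) of the 563 reads placed there, and the methods describe mapping without mismatches. The promoter stretch held 43 of them, GUS 6 and the right border stretch 12, or 10.6%, 10.3% and 12.0% of the reads placed on each. Of the 61, 58 differed in 1 base, and in 41 the only difference was the last base at the 3′ end of the RNA. On the promoter stretch this was so for 33 of 43. Of the reads that differed, 10 were of 24 nt and 7 of 25 nt.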

How the results depend on the processing

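Of 139 values computed for 16 results under 18 alternative settings, 114 stayed within the 95% interval of the reported value, 24 lay outside it and 1 reversed. The reversal was the minus strand share of RNA-seq pieces on the promoter stretch, which was 25.9% with 500 bp upstream of GUS in place of 1000. It was 83.6% with only exact pieces, and 63.8% without the bases shared with pROK2, an alternative added after the data were seen. The 24 nt share of the promoter stretch was 43.5% with identical reads counted once, 52.2% without the most frequent position, 77.7% with 500 bp, 50.0% of all reads of 15 to 47 nt and 77.4% without the shared bases, against 62.6% as reported. Of all reads of 15 to 47 nt, the 24 nt share of the right border stretch was 27.3% and that of the SALK_059379 NOSt bases 40%. The SALK_059379 share was 36.1% with identical reads counted once and 47.1% for reads wholly inside. The ratio of 24 nt densities between promoter stretch and GUS was 21.3 with identical reads counted once, and lay between 53.5 and 145 in all other settings. The ratio of 21 and 22 nt densities was 5.44 with 500 bp and 4.54 without the shared bases. The minus strand share of the 24 nt reads of the promoter stretch was 53.2% with identical reads counted once and 62.7% without the most frequent position. For RNA-seq, the minus strand share was 1.51% on GUS with pieces of 20 bases or more, and 0 on the right border stretch with joined reads or exact pieces. The density ratio of pieces between promoter stretch and GUS was 0.335 with 500 bp and 0.836 with 1500 bp, where its interval (0.695 to 1.003) includes 1. The cause of these changes was not tested beyond the construction of each setting. No paired analysis was possible because each line has 1 library per assay. The small number of reads on GUS, 4 of 24 nt and 17 of 21 to 24 nt, limits every comparison with it.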
